A study of Mus musculus with 10 samples.

Results

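Transport proteins of the blood-brain barrier were examined in bEnd3 cells, an endothelial line from mouse brain that is immortalised by polyoma middle T antigen. The set comprised 10 of the 23111 genes measured, taken by gene symbol for their known role in brain endothelium, whatever their values: Slc2a1, Slc7a5, Slc3a2, Slc7a1, Slc16a1, Slco1a4, Slco1c1, Slco2b1, Mfsd2a and Tfrc. All 10 had a feature of their own on the array. The cells had received a lentivirus and were selected with 2 µg/ml puromycin. In 5 samples (Gata4) the virus held a codon-optimized mouse Gata4 cDNA under an EF1α promoter, joined through an IRES to mCherry and puromycin resistance. In 5 samples (empty vector, EV) it held mCherry and puromycin resistance alone, so both groups carry a virus and were selected. The titles number the samples of a group as biological replicates. Nothing states that they came from separate transductions, so the p-values cover only the spread among these samples, which may be technical.

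Brain capillary endothelium is sealed by tight junctions, so nutrients cross it through carriers in the cell membrane. GLUT1, encoded by Slc2a1, carries glucose, the LAT1 and 4F2hc heterodimer (Slc7a5 and Slc3a2) large neutral amino acids, CAT1 (Slc7a1) cationic amino acids and MCT1 (Slc16a1) lactate and ketone bodies. The organic anion transporting polypeptides of the Slco family carry bile acids, conjugated steroids, drugs and thyroid hormone. MFSD2A carries lysophosphatidylcholine with docosahexaenoic acid, and the transferrin receptor (Tfrc) takes up iron bound to transferrin. GATA4 is a DNA-binding regulator of heart and gut development and of the endothelium of the liver. The comparison asks how these transport genes stand when GATA4 is placed in an endothelial line of brain origin.

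Levels are given as log2 values from RMA, as mean ± SD over 5 samples. Quantile normalization gave all arrays 1 distribution, so a change is relative to other genes. The median gene stood at 4.13 and the 25th percentile at 3.14. The files hold no detection call, and values in that range may be background. In bulk RNA, fewer cells with a transcript and less transcript per cell cannot be told apart. Differences were tested with limma over all 23111 genes with Benjamini-Hochberg adjustment, at a threshold of 0.05, and adjusted p-values below come from that fit. The feature for Gata4, which need not detect the codon-optimized transgene, stood at 5.08 ± 0.17 in the Gata4 samples and 4.75 ± 0.16 in the empty-vector samples. That difference passed the test (adjusted p = 0.017) but the groups overlapped. All 12 endothelial markers lay above the median gene. With Gata4, 3 of these markers were higher and 6 lower, with a median change of -0.18. Cdh5, which encodes VE-cadherin, stood at 13.83 ± 0.06 in the empty-vector and 13.58 ± 0.07 in the Gata4 samples. These values lie at the top of the shared distribution, whose highest value is 13.93, and 4 of the 5 empty-vector samples hold the same value, so no size of change is read from them. For Pecam1 the log2 change was -0.12 and did not pass (adjusted p = 0.090). On the second principal component, with 5.26% of the variance, empty-vector replicates 1 and 2 (-12.8 and -14.4) stood apart from the other 3 (5.55 to 13.3). Each result on the transport genes is therefore also given without them where that matters.

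The promoters of Slc2a1, Tfrc, Slc3a2, Slc7a1 and Slc16a1 are shown because these genes passed the test and have an entry in the RefSeq promoter table (GRCm38.p6). For Tfrc and Slc7a1, which have 2 entries each, the first is shown. They run from 250 bases before to 50 bases after an annotated start, 5′ to 3′ on the strand of the gene. Capitals mark GATAA, the core of the GATA motif, and ACGTG, the core of the hypoxia response motif, on either strand (TTATC and CACGT on the other).
Slc2a1 promoter, chr4:119108495-119108794, plus strand: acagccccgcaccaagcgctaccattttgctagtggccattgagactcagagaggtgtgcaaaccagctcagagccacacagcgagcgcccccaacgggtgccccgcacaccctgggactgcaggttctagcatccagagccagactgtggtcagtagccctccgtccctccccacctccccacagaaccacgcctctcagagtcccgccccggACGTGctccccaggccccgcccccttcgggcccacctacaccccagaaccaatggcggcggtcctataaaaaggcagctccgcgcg
Tfrc promoter, chr16:32608646-32608945, plus strand: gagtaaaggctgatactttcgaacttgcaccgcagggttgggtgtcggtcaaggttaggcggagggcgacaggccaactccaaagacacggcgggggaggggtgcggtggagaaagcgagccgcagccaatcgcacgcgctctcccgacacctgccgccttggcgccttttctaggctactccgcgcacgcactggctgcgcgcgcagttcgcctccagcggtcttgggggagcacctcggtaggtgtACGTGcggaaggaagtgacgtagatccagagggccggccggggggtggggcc
Slc3a2 promoter, chr19:8713848-8714147, minus strand: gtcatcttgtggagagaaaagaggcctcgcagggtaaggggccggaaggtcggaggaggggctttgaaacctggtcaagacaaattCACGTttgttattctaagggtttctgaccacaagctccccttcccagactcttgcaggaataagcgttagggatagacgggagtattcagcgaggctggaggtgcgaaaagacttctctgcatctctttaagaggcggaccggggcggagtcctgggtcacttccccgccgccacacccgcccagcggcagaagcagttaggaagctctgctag
Slc7a1 promoter, chr5:148399855-148400154, minus strand: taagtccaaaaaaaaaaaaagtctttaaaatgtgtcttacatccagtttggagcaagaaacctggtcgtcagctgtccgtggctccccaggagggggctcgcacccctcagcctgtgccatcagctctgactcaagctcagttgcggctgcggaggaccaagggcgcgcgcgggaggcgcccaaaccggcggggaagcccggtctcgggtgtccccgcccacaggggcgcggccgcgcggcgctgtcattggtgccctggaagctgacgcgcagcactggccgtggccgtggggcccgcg
Slc16a1 promoter, chr3:104638414-104638713, plus strand: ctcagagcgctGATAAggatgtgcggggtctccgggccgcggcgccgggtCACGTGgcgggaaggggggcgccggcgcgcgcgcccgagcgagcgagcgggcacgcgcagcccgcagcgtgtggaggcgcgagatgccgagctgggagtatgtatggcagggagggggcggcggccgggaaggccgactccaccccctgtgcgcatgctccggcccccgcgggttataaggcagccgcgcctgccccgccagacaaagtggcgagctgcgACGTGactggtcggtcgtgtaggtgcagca
GATAA was found in the Slc16a1 promoter, 239 bases before the start, and not in the Slc2a1, Tfrc, Slc3a2 and Slc7a1 promoters printed here. The Slc2a1 window held ACGTG 36 bases before the start, that of Tfrc 2 bases before it and that of Slc3a2 164 bases before it on the other strand. The Slc16a1 window held ACGTG at 3 positions, with a CACGTG read on both strands counted as 2 of them. Neither Slc7a1 window held GATAA or ACGTG. Of the 32851 promoters of 300 bases in the table, 25.4% held GATAA and 19.6% held ACGTG. Over the 13 promoters listed for 9 of the 10 genes, 3 held GATAA (Slc16a1, Slco1c1 and Slco2b1) and 7 held ACGTG. These 13 include 2 starts each for Slc7a1 and Tfrc and 3 for Slco2b1. The windows of Tfrc overlap, and the ACGTG counted in each of them is the same site. The windows with ACGTG held from 42% (Slco1c1) to 73.7% (Slc16a1) G and C, against a median of 52.7% over all promoters of 300 bases. The longer form AGATAA, which contains GATAA, was found in 0 of the 13 and in 11.2% of all promoters. The amino acid response element TGATGNAA was found in 0 of the 13 and in 3.97% of all, and the GC box GGGCGG in 5 of the 13 and in 35.7% of all. Such matches are descriptions of letters in these windows and do not show binding.

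Of the 10 transport genes, 4 fell and 2 rose with Gata4. Of all genes tested, 25.6% passed, 12.4% higher and 13.2% lower. Tfrc and Slc2a1 fell most, by 0.93 and 0.79 on the log2 scale, and Slc3a2 and Slc7a1 fell by 0.30 and 0.31. Slc7a5 rose by 0.32 and Slc16a1 by 0.25. The remaining 4, which are Slco1a4, Slco1c1, Slco2b1 and Mfsd2a, did not pass. All 4 lay below the median gene, in a range where 5.21% of genes passed, against 46.0% above the median. The groups did not overlap for 4 of the 10 (Tfrc, Slc2a1, Slc3a2 and Slc7a5), against 21.1% of all genes. The median change of the 10 was -0.06, and that of all genes -0.01.

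**Figure D1:**
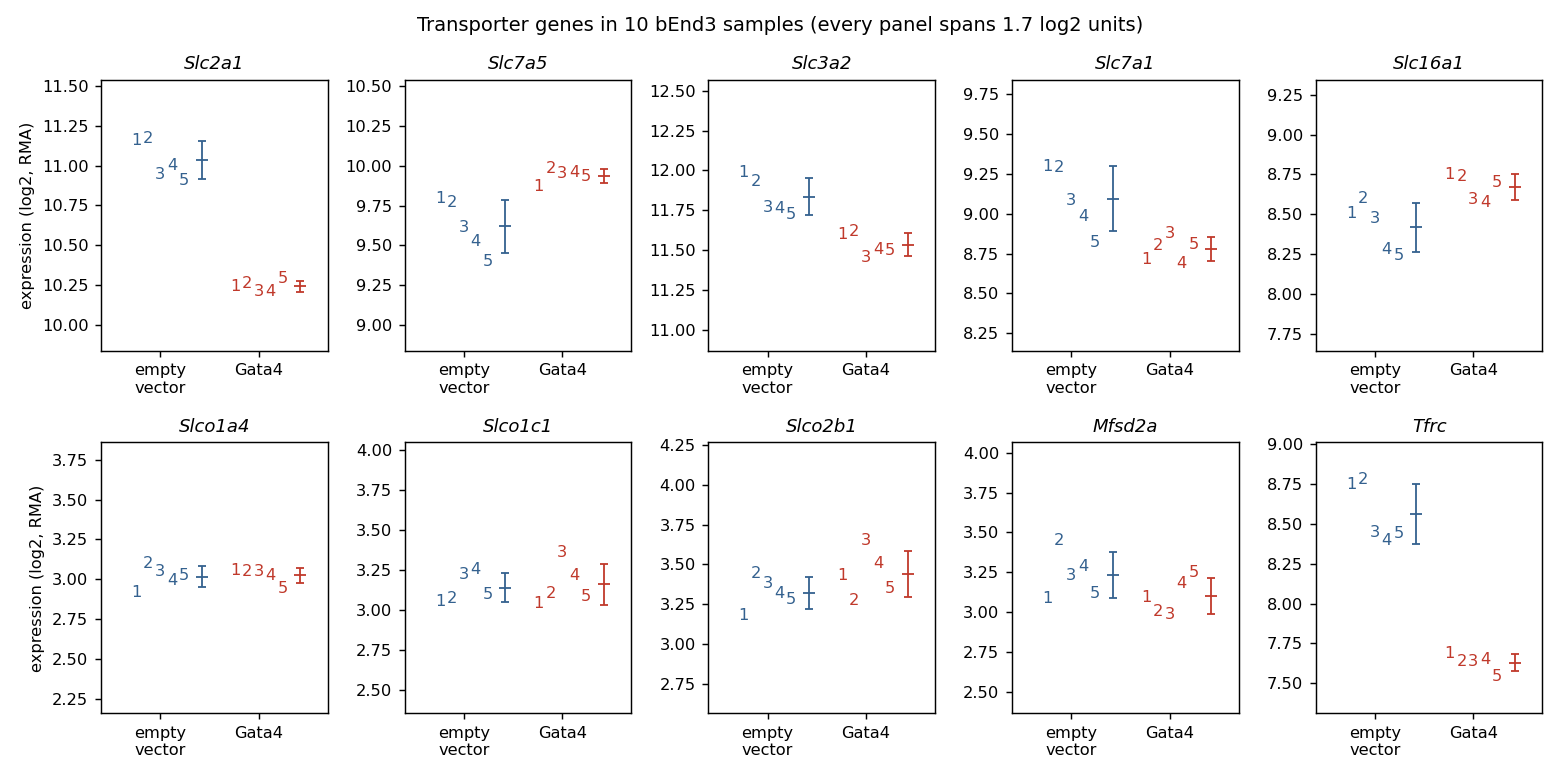
Expression of the 10 transport genes (log2 RMA values, y axis) in 5 empty-vector samples (blue) and 5 Gata4 samples (red) of bEnd3 cells. Digits are replicate numbers, drawn side by side, with the mean ± SD beside them, and every panel spans the same range of log2 units. The Tfrc and Slc2a1 groups lie far apart, and empty-vector replicates 1 and 2 lie above the other 3 for the 6 genes that passed the test.

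Slc2a1 encodes the glucose transporter GLUT1. It stood at 11.16, 11.17, 10.94, 11.00 and 10.91 in empty-vector replicates 1 to 5. In Gata4 replicates 1 to 5 it stood at 10.24, 10.26, 10.21, 10.21 and 10.29. Every Gata4 sample lay below every empty-vector sample, and the spread was 0.03 (SD) in the Gata4 group and 0.12 in the empty-vector group. The means, 10.24 and 11.04, differed 1.73-fold, with a 95% interval of 1.58 to 1.90 (adjusted p = 5.1e-07). Of the 11 other measured genes of the Slc2 family, facilitative hexose and polyol carriers, 1 was higher and 1 lower, with a median change of 0.04. The urate carrier gene Slc2a9 rose from 6.92 ± 0.10 to 7.97 ± 0.06, or 2.06-fold. Slc2a13, which encodes a proton-coupled inositol carrier, fell by 0.45 with overlapping groups, and an exact rank-sum test did not call it (adjusted p = 0.064). Of these 11 genes 9 lay below the median gene.

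Slc16a1, the gene of the lactate carrier MCT1, was higher in the Gata4 samples. It stood at 8.50, 8.60, 8.47, 8.28 and 8.24 in empty-vector replicates 1 to 5. In Gata4 replicates 1 to 5 it stood at 8.75, 8.74, 8.59, 8.57 and 8.70. The groups overlapped, since empty-vector replicate 2 lay above Gata4 replicates 3 and 4. The difference was 1.19-fold, with a 95% interval of 1.07 to 1.33 (adjusted p = 0.023). The call was lost when Gata4 replicate 1 (adjusted p = 0.057), 2 (0.055) or 5 (0.0505), or empty-vector replicate 4 (0.059) or 5 (0.055), was left out, and by an exact rank-sum test (adjusted p = 0.11). Bsg encodes basigin, the chaperone that brings MCT1 to the membrane, and had a log2 change of -0.03 (12.09 ± 0.04 and 12.05 ± 0.08, adjusted p = 0.72). The within-sample log2 difference of Slc16a1 minus Bsg was -3.67 ± 0.17 in the empty-vector and -3.38 ± 0.14 in the Gata4 samples. It differed by 0.29 between the groups, with p = 0.032 in an exact two-sided permutation test, also after adjustment over the 2 gene pairs tested in this way. With Bsg at -0.03, this difference mostly restates the change of Slc16a1 itself and is no separate result. The ratio shows unequal change of the 2 genes only. Its test was lost without Gata4 replicate 1 or 2 (adjusted p = 0.071 each) or 3 or 5 (0.056 each).

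Other monocarboxylate carrier genes split. Of 12 measured in the Slc16 family besides Slc16a1, 3 were higher and 2 lower, with a median change of 0.00. Slc16a6 rose from 6.98 ± 0.16 to 7.41 ± 0.06 and the carnitine carrier gene Slc16a9 by 0.38, a call lost without empty-vector replicates 1 and 2 (adjusted p = 0.065). Slc16a11 fell by 0.38. Slc16a13 fell by 0.16 (adjusted p = 0.035), a call lost under the replicate block (0.058) and in 7 of the 10 fits that left out 1 sample. The adjusted p without Gata4 replicate 1, 2, 3 or 5 was 0.076, 0.052, 0.091 or 0.055. Without empty-vector replicate 1, 2 or 4 it was 0.076, 0.061 or 0.082.

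Amino acid carriers split between the subunits of 1 transporter. Slc7a5 encodes LAT1, the light chain that carries the substrate. It stood at 9.79, 9.77, 9.61, 9.53 and 9.40 in empty-vector replicates 1 to 5 and at 9.87, 9.98, 9.95, 9.96 and 9.93 in Gata4 replicates 1 to 5. The lowest Gata4 sample lay 0.07 above the highest empty-vector sample, and the rise was 1.25-fold, with a 95% interval of 1.12 to 1.39 (adjusted p = 0.0057). Slc3a2 encodes the heavy chain 4F2hc, which takes LAT1 and other light chains to the membrane. It stood at 11.99, 11.93, 11.77, 11.76 and 11.72 in the empty-vector and at 11.59, 11.62, 11.45, 11.51 and 11.50 in the Gata4 samples. The groups did not overlap, and the fall was 1.23-fold, with a 95% interval of 1.12 to 1.35 (adjusted p = 0.0029). The within-sample log2 difference of Slc7a5 minus Slc3a2 was -2.22 ± 0.07 in the empty-vector and -1.60 ± 0.09 in the Gata4 samples. It was higher in every Gata4 sample (-1.73 to -1.50) than in every empty-vector sample (-2.33 to -2.16). The 2 genes thus differed in their change by 0.62 (log2), or 1.54-fold. The exact two-sided permutation test gave p = 0.0079, the smallest it allows with 5 samples a group. After adjustment over the 2 pairs it was 0.016. Each gene alone had groups that did not overlap, in opposite directions, so this separation and p-value were fixed by them. They add no evidence beyond the 2 single-gene results.

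The other light chains that bind 4F2hc, followed here after their values were seen, went in both directions. Slc7a6, which encodes y+LAT2, an exchanger of cationic and neutral amino acids, stood at 7.57 to 7.94 in the empty-vector and at 9.20 to 9.39 in the Gata4 samples, a 2.98-fold rise (adjusted p = 8.2e-09). Slc7a11 encodes xCT, the cystine and glutamate exchanger, and stood at 10.21 to 10.63 and at 8.96 to 9.17, a 2.54-fold fall (adjusted p = 1.9e-07). Slc7a7, the gene of y+LAT1, fell 1.55-fold, from 8.54 ± 0.19 to 7.91 ± 0.11. Each of these 3 genes had groups that lay apart. Slc7a8 and Slc7a10 lay below the median gene in both groups, with changes of 0.18 and -0.03 that did not pass (adjusted p = 0.12 and 0.89). Of 15 other measured genes with an Slc7 or Slc3 symbol, 2 were higher and 3 lower, with a median change of -0.01. These counts include the low-level gene Slc7a4 (0.67 higher) and Slc7a6os, a neighbour of Slc7a6 that the symbol rule took in although it is no carrier (0.30 lower).

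**Figure D2:**
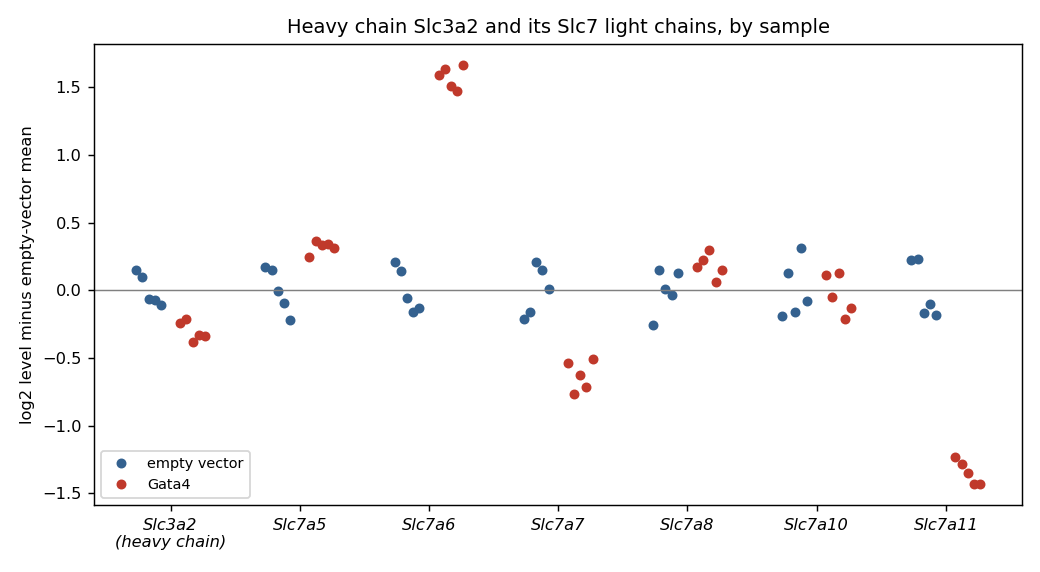
Level of the heavy chain gene Slc3a2 and of 6 Slc7 light chain genes in each sample, as log2 value minus the mean of the 5 empty-vector samples (y axis); blue points are empty-vector and red points Gata4 samples. Slc7a6 and Slc7a5 lie above, and Slc3a2, Slc7a7 and Slc7a11 below, the empty-vector samples without overlap, whereas Slc7a8 and Slc7a10 overlap.

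Slc7a1 encodes CAT1, which carries arginine and lysine without a heavy chain. It stood at 9.29, 9.29, 9.08, 8.98 and 8.82 in empty-vector replicates 1 to 5 and at 8.72, 8.80, 8.88, 8.69 and 8.81 in Gata4 replicates 1 to 5. The groups overlapped, since empty-vector replicate 5 lay below Gata4 replicate 3. The fall was 1.24-fold, with a 95% interval of 1.09 to 1.42 (adjusted p = 0.018). Without empty-vector replicates 1 and 2 the log2 change was -0.18 and did not pass (adjusted p = 0.11), and an exact rank-sum test did not call it either (adjusted p = 0.064).

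The transferrin receptor gene had the largest change of the 10. Tfrc stood at 8.75, 8.78, 8.44, 8.40 and 8.44 in empty-vector replicates 1 to 5 and at 7.69, 7.63, 7.63, 7.65 and 7.54 in Gata4 replicates 1 to 5. The groups lay clear of each other, and the fall was 1.91-fold, with a 95% interval of 1.69 to 2.15 (adjusted p = 1.7e-06). Iron-regulatory proteins, encoded by Aco1 and Ireb2, bind the Tfrc transcript and keep it stable when iron is scarce, and block translation of ferritin. Aco1 fell from 9.38 ± 0.07 to 9.18 ± 0.05 (adjusted p = 0.0062), and Ireb2 differed by 0.11 and did not pass (adjusted p = 0.17). Fbxl5, whose product marks iron-regulatory proteins for degradation when iron is present, fell from 10.16 ± 0.03 to 9.22 ± 0.01, or 1.93-fold.

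Of 24 other genes of iron handling 5 were higher and 7 lower, with a median change of 0.02. Hmox1, the gene of haem oxygenase, which frees iron from haem, fell 1.62-fold from 12.48 ± 0.11 to 11.78 ± 0.04. The ferritin chain genes Fth1 and Ftl1, the uptake carrier genes Slc11a2 and Slc39a14, Steap3 and Lrp1 were chosen after their values were seen. Fth1 was called lower, at 13.48 ± 0.05 in the empty-vector and 13.06 ± 0.02 in the Gata4 samples. These values lie near the top of the shared distribution, and Gata4 replicates 2 to 5 hold the same value. No size of change is therefore read from them. Ftl1 fell by 0.48 (log2), with overlapping groups and a level below the median gene. Steap2, a metalloreductase gene, rose from 5.96 ± 0.19 to 7.49 ± 0.14, or 2.89-fold. Slc11a2, which encodes the endosomal iron carrier DMT1, rose by 0.29 and Slc39a14, which encodes the carrier ZIP14, fell by 0.31. Heph, which encodes the ferroxidase hephaestin, rose by 0.34, from 4.03 ± 0.13 to 4.37 ± 0.16, near the level of the median gene. Slc40a1, which encodes the iron exporter ferroportin, stood at 5.07 ± 0.17 in the Gata4 and 5.11 ± 0.27 in the empty-vector samples and did not pass (adjusted p = 0.89). The count of higher iron genes went from 5 to 3 without Gata4 replicate 5, without empty-vector replicate 1 or 4, without empty-vector replicates 1 and 2 together, and by the exact rank-sum test. Steap3 (0.32) and Lrp1 (0.20) were the other 2 genes called higher, both with overlapping groups and Steap3 below the median gene. The count of lower iron genes was 5 in place of 7 by the exact rank-sum test.

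**Figure D3:**
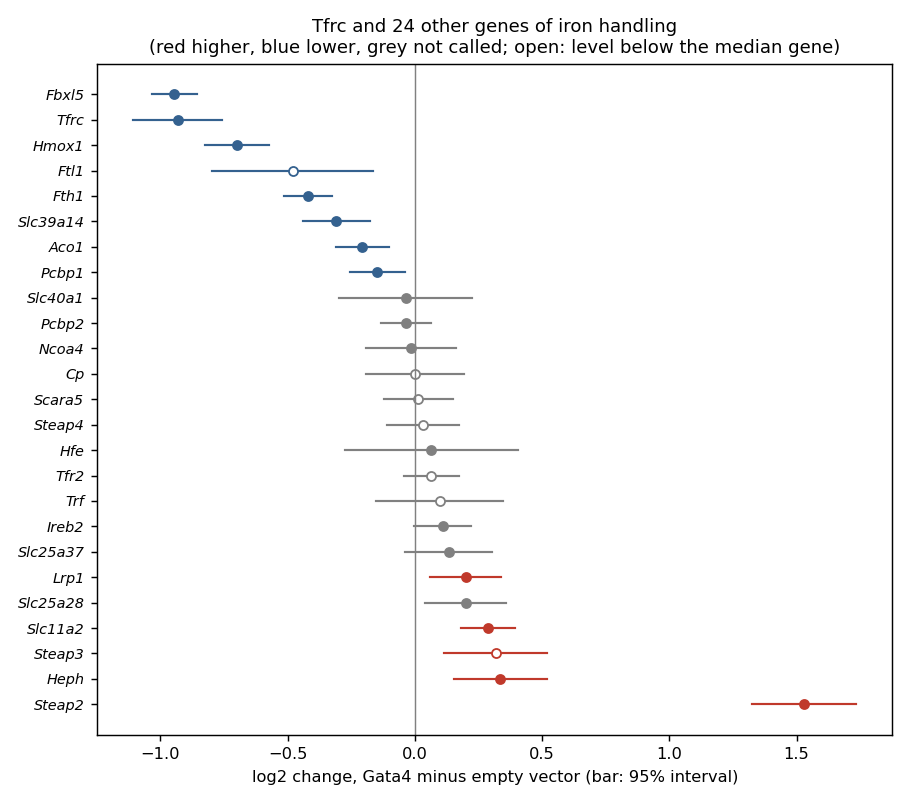
Log2 change (x axis, Gata4 minus empty vector, with 95% interval) of Tfrc and 24 other genes of iron handling. Red genes were called higher, blue genes lower and grey genes neither; open points lie below the level of the median gene. Fbxl5, Tfrc and Hmox1 lie farthest to the left and Steap2 farthest to the right.

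The organic anion carriers and the lipid carrier of brain endothelium did not pass the test. Slco1a4, which encodes OATP1A4, stood at 2.92 to 3.10 in the empty-vector and at 2.94 to 3.05 in the Gata4 samples. Slco1c1 encodes OATP1C1, the thyroxine carrier, and stood at 3.06 to 3.26 and at 3.04 to 3.36. These values lie about the 25th percentile of all genes in both groups and may be background. The log2 changes were 0.01 (95% interval -0.10 to 0.11) and 0.02 (-0.13 to 0.17), with adjusted p = 0.95 and 0.88. Slco2b1, which encodes OATP2B1, stood at 3.18 to 3.44 and at 3.27 to 3.65, with a change of 0.12 (-0.04 to 0.28, adjusted p = 0.30). Mfsd2a stood at 3.08 to 3.45 and at 2.98 to 3.25, with a change of -0.13 (-0.30 to 0.04, adjusted p = 0.27). The groups overlapped for all 4 genes. A feature at background would show little change whatever its transcript did, so these intervals do not bound a change in the transcripts.

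Of 12 other Slco genes 1 was higher and 2 lower, with a median change of 0.00, and 9 of the 12 lay below the median gene. Slco2a1, a prostaglandin carrier gene, rose from 4.87 ± 0.21 to 5.61 ± 0.11. Slco4a1 fell 2.10-fold, from 6.09 ± 0.09 to 5.02 ± 0.20, and Slco3a1 fell 1.69-fold, from 10.10 ± 0.12 to 9.34 ± 0.05. The higher count was 2 in place of 1 without Gata4 replicate 4 or without empty-vector replicate 1 or 2. Of 8 genes that carry, activate or sense thyroid hormone, 1 was higher and 0 lower by limma, with the same counts at an unadjusted p under 0.05 and by an exact rank-sum test, and a median change of 0.05. That gene was Thra, a thyroid hormone receptor gene, which rose from 7.43 to 7.87.

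Of 18 lipid uptake genes 4 were higher and 7 lower, with a median change of -0.05. The fatty acid receptor gene Cd36 rose from 2.89 ± 0.08 to 4.60 ± 0.43 and the fatty acid binding protein gene Fabp5 from 4.18 ± 0.17 to 5.46 ± 0.36. Both started at or near the range of low values, so their folds can be understated. Vldlr, a lipoprotein receptor gene, fell 3.14-fold, from 8.35 ± 0.11 to 6.70 ± 0.14, and the related receptor gene Lrp8 fell 1.83-fold.

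Solute carriers of brain endothelium outside these families changed in both directions. Of 38 measured, 13 were higher and 10 lower, and the median change was 0.05. The nucleoside carrier gene Slc29a1 rose 2.40-fold, from 7.93 ± 0.09 to 9.19 ± 0.13, and the taurine carrier gene Slc6a6 2.03-fold, from 8.32 ± 0.12 to 9.34 ± 0.11. Slc12a2, which encodes the sodium, potassium and chloride cotransporter NKCC1, fell 2.09-fold, from 10.08 ± 0.13 to 9.01 ± 0.07. Slc30a1, a zinc exporter gene, fell 1.99-fold. Among 12 chaperones and partners of transporters 3 were higher and 3 lower (median change -0.01). The PDZ scaffold gene Slc9a3r1 rose by 0.98 and its relative Slc9a3r2 fell by 0.32. Txnip, whose product promotes internalisation of GLUT1, rose from 11.58 ± 0.12 to 12.08 ± 0.04 (log2 change 0.50), and the ubiquitin ligase gene Nedd4l fell by 0.39.

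**Figure D4:**
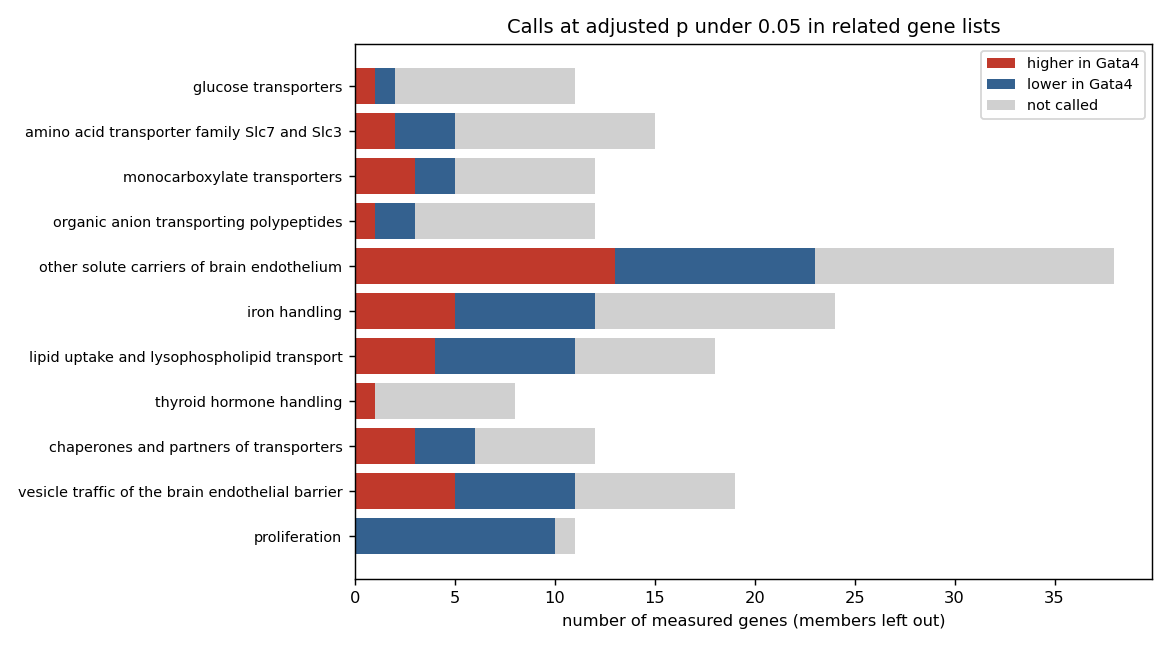
Number of measured genes (x axis) called higher (red), lower (blue) or neither (grey) in the Gata4 samples at an adjusted p under 0.05, in 11 lists related to the transport genes, which are themselves left out. The list of other solute carriers holds 13 higher and 10 lower genes, and the proliferation list 10 lower and 0 higher.

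Vesicle traffic genes also split, with 5 of 19 higher and 6 lower and a median change of -0.10. An exact rank-sum test called 3 higher and 6 lower. Cavin2, a caveolar coat gene, rose by 1.29 and the clathrin heavy chain gene Cltc by 0.80. Cavin1 fell by 0.69 and the caveolin gene Cav2 by 0.38. Among 17 other genes raised in brain endothelium 7 were higher and 4 lower (median change 0.09): Itm2a rose by 5.13 and the occludin gene Ocln by 3.01, while the efflux pump gene Abcg2 fell by 1.59 and the claudin gene Cldn5 by 1.04.

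Genes of dividing cells were mostly lower in the Gata4 samples. Of 11 such genes 0 were higher and 10 lower by limma, and the median change was -0.38. Without adjustment 11 had p under 0.05 and all were lower; by an exact rank-sum test the counts were 9 lower and 0 higher. Their summed linear level was 14675 to 15662 in the empty-vector and 12113 to 13086 in the Gata4 samples. Aurkb fell by 0.67 and Ccne2 by 0.66. The part of this in the transport genes was not tested.

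Markers of other cell types were mostly at low levels. Of 10 pericyte and smooth muscle markers 8 lay below the median gene, and 1 was higher (Rgs5, 0.32) and 1 lower (Acta2, -0.76). The Acta2 call was lost without Gata4 replicate 3 (adjusted p = 0.058) or 5 (0.054) or empty-vector replicate 1 (0.062), and by an exact rank-sum test (0.064). Without empty-vector replicates 1 and 2 the Acta2 change was -0.36 (adjusted p = 0.033). The summed linear level of these markers was 202 to 359 in the empty-vector and 197 to 215 in the Gata4 samples. Of 6 astrocyte markers 5 lay below the median gene and 1, the connexin gene Gja1, fell by 1.26, with sums of 843 to 1093 and 403 to 451. Gja1 alone, at 9.79 ± 0.15 in the empty-vector and 8.53 ± 0.07 in the Gata4 samples, makes up most of these sums. Of 8 leukocyte and microglia markers 6 lay below the median gene and 2 fell (Cd68 by 1.22 and Cd14 by 0.34), with sums of 425 to 489 and 221 to 264. Cd68 alone, at 8.53 ± 0.14 in the empty-vector and 7.30 ± 0.17 in the Gata4 samples, makes up most of these sums. Cd14 lay below the median gene and its groups overlapped. Without empty-vector replicates 1 and 2 it did not pass (adjusted p = 0.056). An exact rank-sum test called only Cd68 lower among these 8 markers. Of 6 epithelial and 5 hepatocyte markers 5 each lay below the median gene and 0 passed in limma or in an exact rank-sum test. At an unadjusted p under 0.05, 1 epithelial and 0 hepatocyte markers were higher and 0 lower. Their sums reached at most 118 and 53.2 in the empty-vector, and 119 and 49.3 in the Gata4 samples. Their part in the results on transport genes was not tested.

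The empty-vector samples were not alike for the transport genes. For all 6 genes that passed, empty-vector replicates 1 and 2 were the highest of the 5, a pattern seen in 19.7% of genes above the median level. Without them Slc2a1 changed by -0.71, Tfrc by -0.80, Slc3a2 by -0.22, Slc7a5 by 0.43 and Slc16a1 by 0.34 on the log2 scale, and all 5 passed (adjusted p from 1.6e-06 for Tfrc to 0.020 for Slc3a2). Slc7a1, as given above, did not. The changes of the genes that fell were smaller, and those of the genes that rose were larger, than over all samples. This direction is fixed by arithmetic, since leaving out the 2 highest values lowers the empty-vector mean. The cause of the split was not tested.

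**Figure D5:**
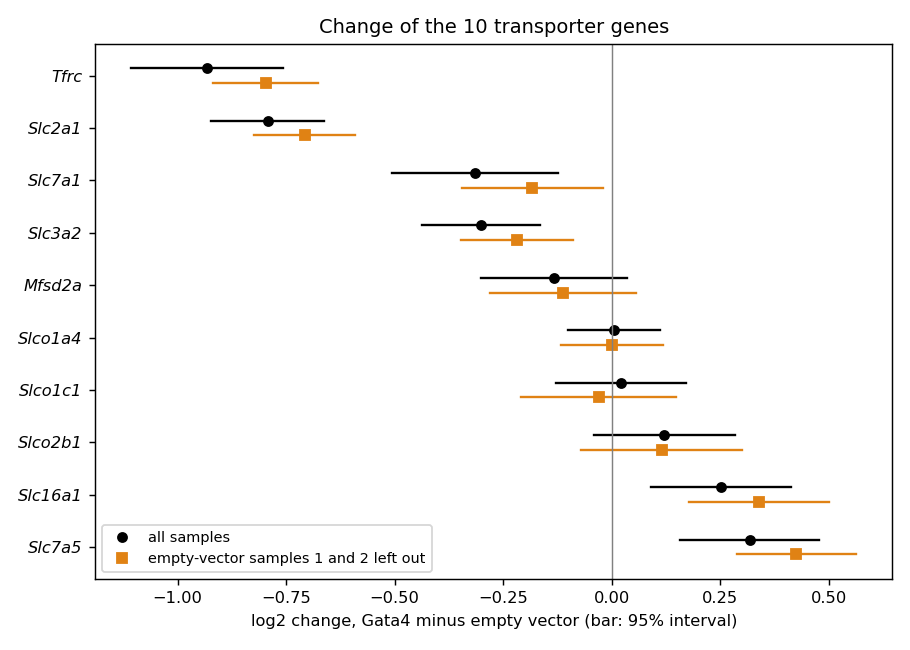
Log2 change (x axis, Gata4 minus empty vector, with 95% interval) of the 10 transport genes over all samples (black circles) and with empty-vector replicates 1 and 2 left out (orange squares). The 4 genes at the top move toward 0 and Slc7a5 and Slc16a1 away from 0 when these replicates are left out; the other 4 intervals include 0 in both fits.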

How the data were processed

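Total RNA of 10 bEnd3 samples had been read on Affymetrix arrays. Each feature has 1 log2 value per sample in the authors' deposited table, made with RMA per the submitters' processing notes. The sources used here do not give the RMA version, the probe annotation or the build. Of 23748 features, 23111 had 1 gene symbol in the platform annotation, 0 had several and 637 had none. The values of the named features were fitted with limma 3.58.1 under R 4.3.3 (lmFit, then eBayes with no trend), Gata4 against empty vector, with Benjamini-Hochberg adjustment. The depth is that of 10 arrays, whose number limits the precision. Correlations were 0.9964 to 0.99772 within groups and 0.98414 to 0.98631 between them, and 0 pairs of columns were identical. On simulated data with the spreads of these 23111 genes, 100 genes were changed by 0.5 and 50 by 1 (log2). The fit recovered 83% and 100% of these, and 5.18% of its calls were false. Far fewer genes were changed there than the 25.6% that passed here. No split of the empty-vector samples was built in, so these rates need not hold for the data.

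The rule that took the 10 transport genes used gene symbols and known roles, not their values. The set, the 18 gene lists, the alternatives and the promoter motifs were still chosen with earlier results of these data known. Lists are described by counts and medians, with no test of a list. Named genes are the 10 members; Gata4, Cdh5, Pecam1, Cldn5, Bsg, Slc40a1, Aco1 and Ireb2; and up to 2 called genes in each direction per list, 66 in all. Within-sample differences of 2 gene pairs were compared by an exact permutation test (Python 3.11.15, SciPy 1.17.1). Same-numbered samples of the groups had correlations of deviations from the group means between -0.02 and 0.09, so the replicate number was used as a block only as an alternative. Some listed genes were not analysed here. Promoter sequences are RefSeq's (GRCm38.p6), and no other coordinates are printed.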

Additional observations from a re-analysis of the deposited data

Results flagged for a closer look

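In 5 of the 132 groups of 5 values behind the named genes, 1 sample lay far from the other 4, where chance flags about 1 group in 20. The only transport gene among them was Slco1a4, at 2.94 in Gata4 replicate 5 against 3.03 to 3.05 in the other Gata4 samples, all in the range of low values. Aco1 stood at 9.26 in Gata4 replicate 1 against 9.14 to 9.17, and the zinc exporter gene Slc30a1 at 7.79 in Gata4 replicate 2 against 8.15 to 8.29. Heph stood at 4.65 in Gata4 replicate 4 against 4.27 to 4.34. Cdh5 stood at 13.73 in empty-vector replicate 3, and the other 4 empty-vector samples all held the same value, 13.86.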

How the results depend on the processing

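All 10 transport genes were refitted under 20 alternative settings. Slc2a1, Tfrc, Slc3a2 and Slc7a5 passed in all 20, with log2 changes of -0.83 to -0.71, -0.97 to -0.80, -0.33 to -0.22 and 0.26 to 0.43. Slc7a1 passed in 18 (-0.38 to -0.18) and Slc16a1 in 14 (0.21 to 0.34). Slco1a4, Slco1c1, Slco2b1 and Mfsd2a passed in none of the 18 or 19 that kept them. The count of higher transport genes was 1 by the exact rank-sum test in place of 2, and 1 to 2 when 1 sample was left out. The count of lower ones was 3 in place of 4 by that test and without empty-vector samples 1 and 2. With the replicate block the same counts of 2 higher and 4 lower were found, and over all genes 2721 and 2923 against 2857 and 3058. The correlations of same-numbered samples did not show pairing. For the paired form of the within-sample differences, an exact sign-flip test over 5 pairs cannot go below 0.0625, the value it gave for both Slc7a5 minus Slc3a2 (0.62) and Slc16a1 minus Bsg (0.29) under the replicate block. Leaving out 1 sample gave 0.59 to 0.65 for the former and 0.23 to 0.34 for the latter. Of 1310 refits of single genes, 26 lost a call, 5 gained one (all Pecam1) and 0 reversed a called direction. The call of Gata4 was lost by the exact rank-sum test (adjusted p = 0.11). Of 720 counts over the lists, 37 moved by over 1.5 times, mostly counts of 1 or 2 genes. Centring the arrays again on the genes above the median changed no call among the named genes. Signal near background limits what can be said of 4 of the transport genes.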
